A study of Mus musculus with 10 samples.

Results

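The genes described here encode the subunits of the oxidative phosphorylation complexes and, for complex I, 8 assembly factors that share the subunits' naming. They were taken from the deposited table by gene symbol among protein-coding rows, without reference to their values, and numbered 105 of the 26360 genes listed (17079 of them protein-coding). Of these, 13 are encoded by the mitochondrial genome and 92 by the nucleus. The nuclear genes comprised 37 subunits of complex I, 4 of complex II, 8 of complex III, 18 of complex IV and 17 of complex V, besides the 8 assembly factors. Cyc1, the cytochrome c1 subunit of complex III (15.3 ± 1.42 CPM, SD over 10 libraries), has a symbol outside the selected names and is in none of the counts and sums of complex III. Ndufa4 and its paralog Ndufa4l2 were counted with complex IV, where the Ndufa4 protein is known to reside.

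RNA was sequenced from the posterior eye wall of 5 wild type C57BL/6J mice, with both eyes of every animal sequenced separately (10 libraries). From postnatal day 24 each mouse carried a -20 D lens, which places the image behind the retina and induces myopia, in front of 1 eye for 10 days, with the fellow eye left without a lens. The mice were 34 days old at collection. The tissue label names sclera, choroid and retinal pigment epithelium (RPE), while the extraction text speaks of retinae. The labels give the side of each eye and not the side of the lens, so the groups were left eye (n = 5) and right eye (n = 5). Every animal had 1 treated eye, and neither the sign nor the size of a right minus left difference can be read as an effect of the lens.

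Oxidative phosphorylation couples the oxidation of NADH and succinate to the synthesis of ATP. Complexes I and II pass electrons to ubiquinone, complex III passes them on to cytochrome c, complex IV transfers them to oxygen, and complex V, the ATP synthase, uses the proton gradient that complexes I, III and IV build. All complexes except complex II combine subunits from both genomes, and mitochondrial genes are transcribed as long polycistronic RNAs, whereas each nuclear subunit has its own promoter. The RPE is known as a tissue with a high oxidative metabolism.

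Values are CPM, counts scaled to a fixed total of reads per library. Steps between low values implied 66.8 to 94.0 M reads per library (M, mega), and the listed genes made up 42.7% to 47.1% of them. At this depth 3 reads equalled 0.0319 to 0.0449 CPM. The defining markers of the labelled tissue were present. The summed level of 10 RPE markers lay between 5081 and 7016 CPM, with 9 of 10 at a mean of at least 1 CPM (Best1 was below), that of 10 scleral fibroblast markers between 7578 and 10974 CPM, and that of 10 endothelial markers between 422 and 610.1 CPM. Other cell types contributed markers too, foremost skeletal muscle (20 of 20 genes listed, summed level 2208 to 10270.4 CPM), while 10 markers of the inner retina summed to 961 to 1344 CPM, 10 rod markers to 155 to 1965 CPM and 9 markers of the surface epithelium to 135 to 862 CPM. In such bulk tissue, fewer cells of a type and less RNA per cell cannot be told apart.

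The 13 mitochondrially encoded genes together carried more reads than the 92 nuclear ones in every library. They summed to 5629 ± 309 CPM (SD over 10 libraries from 5 animals, range 4943 to 5967), or 1.24% ± 0.0776 of the CPM of listed genes. The nuclear members summed to 2460 ± 178 CPM (2201 to 2795), or 0.540% ± 0.0351. Per kilobase of exons, which takes gene length into account, the median mitochondrial member stood at 149.996 CPM per kb (lowest 10.8, highest 2024). The median nuclear member stood at 10.3 CPM per kb (lowest 0.532, highest 82.9). The exons were pooled over all annotated transcripts of a gene and include untranslated parts, so they can be longer than a single transcript. For Atp5l they spanned 6443 bases, against 544 in a single transcript. This lowers the values per kb of such nuclear genes. Per kilobase of coding sequence the nuclear median was 37.0 CPM against 149.996 CPM for the mitochondrial members.

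**Figure D1:**
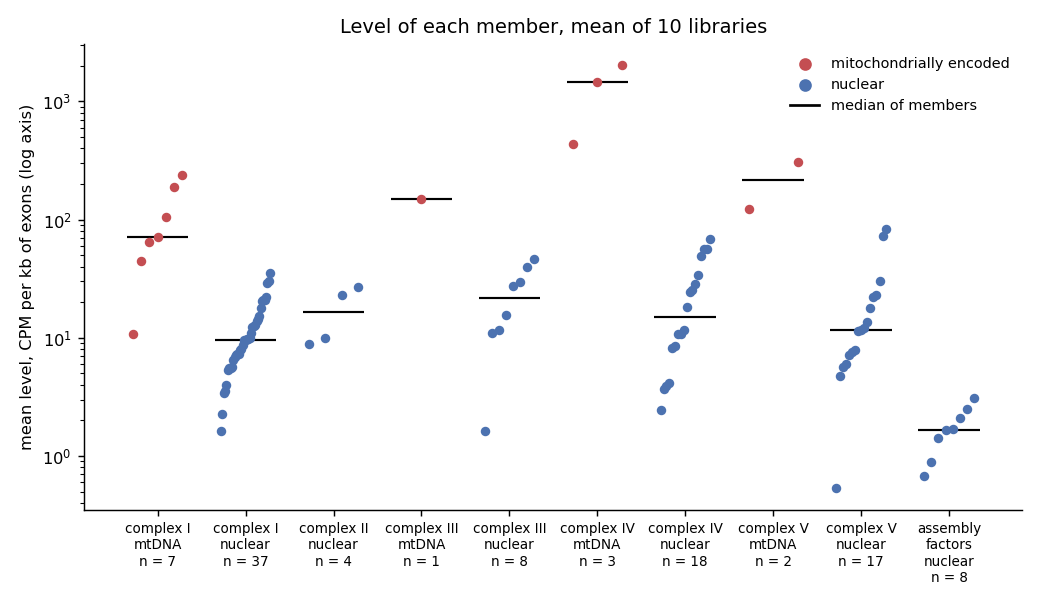
Mean level of each member over 10 libraries in CPM per kb of exons (log axis), grouped by complex and genome, with a bar at the median of each group. The 3 mitochondrially encoded genes of complex IV lie highest, at 432 to 2024 CPM per kb, and the assembly factors lowest, around a median of 1.66 CPM per kb.

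The excess of the mitochondrial genome was concentrated in complex IV. Its 3 mitochondrial genes, which encode the catalytic core of cytochrome c oxidase, summed to 4575 ± 246 CPM, against 429 ± 40.3 CPM for the 18 nuclear complex IV genes. In complex I the 7 mitochondrial genes summed to 649 ± 51.3 CPM and the 37 nuclear subunits to 649 ± 43.7 CPM. For complex III the single mitochondrial gene, mt-Cytb (cytochrome b), stood at 172 ± 15.3 CPM beside 222 ± 16.6 CPM for 8 nuclear genes. In complex V the nuclear genes carried most of the reads, with 953 ± 67.6 CPM from 17 genes against 233 ± 26.2 CPM from mt-Atp6 and mt-Atp8. Complex II, wholly nuclear, summed to 178 ± 12.1 CPM, and the assembly factors Ndufaf1 to Ndufaf8, which help to build complex I and are not part of it, to 28.9 ± 1.86 CPM.

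Per kb of exons, the catalytic core of ATP synthase led among nuclear genes. Atp5a1, which encodes the alpha subunit, stood at 82.9 ± 5.20 CPM per kb (SD, n = 10 libraries) and Atp5b, the catalytic beta subunit, at 72.7 ± 5.75 CPM per kb. Their SDs overlap. Such overlap, here and in the orders below, does not compare the genes within each library, and no such comparison was made. Atp5b was at 289.9, 335, 278, 302 and 349 CPM in the left eyes of animals 61, 64, 65, 66 and 68 and at 290.0, 322, 330.4, 283 and 303 CPM in the corresponding right eyes. The left and right values overlapped almost completely. Atp5k, the small e subunit, was the next in complex V at 30.02 ± 6.15 CPM per kb of exons. The order depended on the length used. Per kb of coding sequence Atp5b (194 CPM) led, Cox8a (191), Uqcr11 (178) and Cox6c (169.9) lay above Atp5a1 (157), and Atp5mpl (125), Atp5md (124) and Atp5l (99.0) lay above Atp5k (86.8). Atp5g2, which encodes a precursor of the c subunit of the rotor, was the lowest nuclear member (0.687 to 1.28 CPM) and the only one of 105 that missed a mean of 1 CPM, so 104 members entered the tests.

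Per kb of exons, in complex IV the small subunits Cox8a (68.5 ± 7.19 CPM per kb), Cox8b (56.9 ± 10.3) and Cox6b1 (56.8 ± 6.38) led, followed by Cox4i1 (49.3 ± 4.90), the major regulatory subunit. The SDs of neighbours in this order overlapped. Complex III was led by its small subunits Uqcr11 (46.7 ± 6.80 CPM per kb), Uqcrb (39.9 ± 3.79) and Uqcrh (29.9 ± 3.20). In complex I the accessory subunits Ndufa13 (35.01 ± 2.91 CPM per kb), Ndufb9 (30.2 ± 3.27) and Ndufa1 (29.2 ± 3.70) were highest. In complex II, Sdhd, a membrane anchor, reached 26.8 ± 2.53 CPM per kb, Sdha, the flavoprotein that oxidises succinate, 22.8 ± 1.5005 and Sdhb, the iron-sulfur subunit, 9.97 ± 1.07. Neighbours in these orders had overlapping SDs, except Uqcrb above Uqcrh and Sdha above Sdhb. These orders also depended on the length used. Per kb of coding sequence, Sdhc (56.8 CPM) lay above Sdha (47.3) and Sdhb (26.4), and Uqcrh (138) above Uqcrb (105). In complex IV, Cox6c (169.9) then lay above Cox6b1 (156) and Cox8b (97.5). Ndufa13 and Cox4i1 overlap another gene on the same strand in the annotation, so part of their reads may belong to it.

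The mitochondrial members differed widely from each other although their RNAs come from shared precursors. mt-Co1, the subunit that holds the oxygen-reducing site, was the highest, at 2942, 3384, 3292, 3017 and 2934 CPM in the left eyes of animals 61, 64, 65, 66 and 68 and at 3284, 3061, 3432, 3147 and 2772 CPM in the right eyes. These values span a narrow range, with left and right eyes intermingled. Per kb, mt-Co1 stood at 2024 ± 141 CPM and mt-Co3 at 1471 ± 114, followed by mt-Co2 (432 ± 29.5), mt-Atp6 (306 ± 37.2), mt-Nd1 (238 ± 19.7), mt-Nd3 (189 ± 36.2), mt-Cytb (149.996 ± 13.4), mt-Atp8 (123 ± 35.9) and mt-Nd4 (104 ± 11.4). At the lower end were mt-Nd5 (70.5 ± 8.87), mt-Nd6 (64.4 ± 9.82), mt-Nd2 (44.8 ± 3.27) and mt-Nd4l (10.8 ± 6.02 CPM per kb). Neighbours in this order from mt-Nd1 to mt-Nd4, and the pair mt-Nd5 and mt-Nd6, had overlapping SDs. mt-Nd6 is the only member on the minus strand of the mitochondrial genome and overlaps mt-Nd5 on the plus strand. Another 5 members (mt-Atp8, mt-Atp6, mt-Co3, mt-Nd4l and mt-Nd4) overlap a neighbour on their own strand, where a read can belong to both genes.

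**Figure D2:**
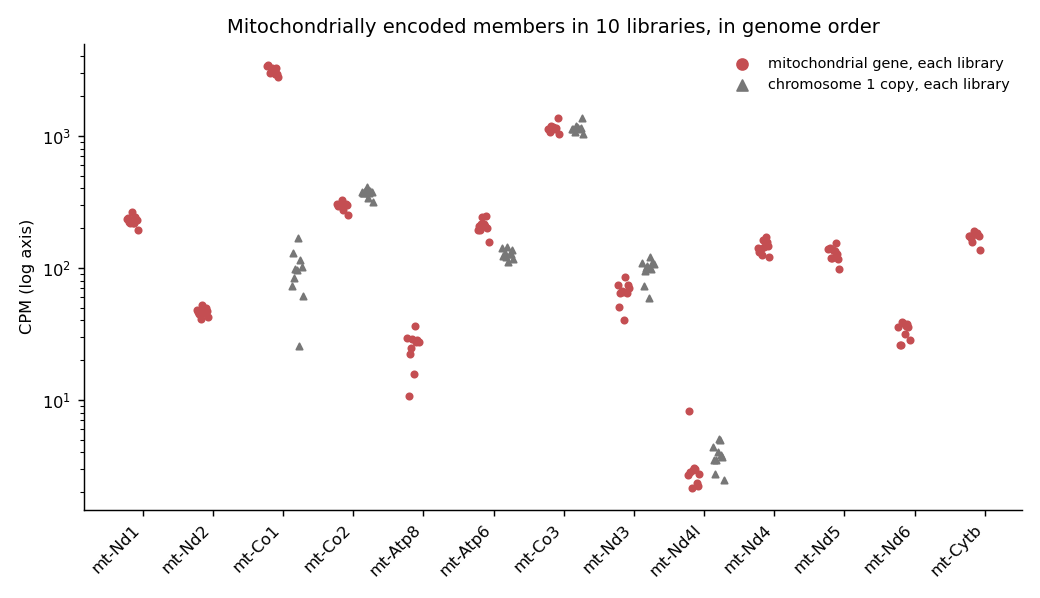
CPM (log axis) of the 13 mitochondrially encoded members in each of the 10 libraries, ordered along the mitochondrial genome, with the chromosome 1 copies of 6 of them as triangles. mt-Co3 and its copy coincide at 1153 CPM, whereas the copy of mt-Co1 lies far below its member.

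A nuclear copy of the mitochondrial genome bears on these levels. On chromosome 1 (24612407 to 24616197, minus strand, GRCm38) the table lists 6 pseudogenes whose sequence matches a mitochondrial member at 99.7% identity or more over the aligned bases. A read from such a stretch fits both places, and the division of these reads was part of the authors' processing. mt-Co3 (783 of 784 bases identical to Gm28437) was at 1153.1 CPM and its copy at 1153.3 CPM, and the member held 49.996% to 49.998% of the sum of both in all 10 libraries. The largest difference between them in any library was 0.190 CPM. mt-Co2, identical to Gm28661 over 681 bases, held 44.3% to 44.5% of the sum (295 and 369 CPM), and mt-Atp6, identical to Gm10925 over 678 bases, 57.7% to 66.1% (208 and 128 CPM). mt-Nd4l stood at 3.22 CPM beside 3.81 CPM for Gm10222, with 294 identical bases. mt-Co1 shares only 483 of its 1545 bases with Gm29216 and stood at 3127 CPM against 95.3 CPM. For these 6 genes the level of the mitochondrial gene alone is therefore uncertain.

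mt-Nd3 and its copy differ at 1 of 345 aligned bases. Their first 33 bases are shown because that single base is all that separates the pair. They are printed 5′ to 3′ along the gene, from GRCm38, with the differing base in capitals, mt-Nd3 at chrM:9459-9491 on the plus strand and Gm28438 at chr1:24613087-24613119 on the minus strand.
mt-Nd3: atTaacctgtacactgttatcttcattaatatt
Gm28438: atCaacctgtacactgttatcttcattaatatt
The substitution is T3C, counted from 1 at the first base of mt-Nd3 and written with the base of mt-Nd3 first. mt-Nd3 stood at 65.7 ± 12.6 CPM and Gm28438 at 97.3 ± 18.5 CPM, so the member held 39.0% to 41.4% of the sum.

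Reads of nuclear members can be divided in the same way, since 15 of the 92 have a listed near-identical copy (at least 97% identity over at least 150 bases). Atp5g2 stood at 0.891 ± 0.200 CPM, while its processed copy Gm10175, identical over 645 of 731 transcript bases, stood at 25.4 CPM. Atp5g2 held 2.63% to 4.44% of the sum, and its place as the lowest nuclear member is uncertain, since these reads could be assigned to either. Ndufb4, a complex I accessory subunit, was at 6.47 CPM beside 17.4 CPM for Ndufb4c, and Ndufa12 at 10.8 CPM beside 13.2 CPM for Gm15920. Cox7c, a small complex IV subunit, was at 9.66 CPM beside 15.02 CPM for Gm12338, which is identical over 192 bases, and held 27.2% to 52.8% of the sum. In the remaining nuclear pairs the member held at least 61.3% of the sum.

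The balance of the genomes was then followed across libraries. The summed mitochondrial over the summed nuclear level was 2.32 in the left and 2.49 in the right eye of animal 61, 2.19 and 2.24 in animal 64, 2.71 and 2.33 in animal 65, 2.19 and 2.44 in animal 66, and 2.03 and 2.04 in animal 68. It was higher in the right eye in 4 of 5 animals (3 of 5 with the chromosome 1 copies added or without mt-Nd6 and overlapping members, and 2 of 5 from medians per kb), and the left (2.29 ± 0.258) and right (2.31 ± 0.180) groups overlapped almost completely. The left eye of animal 65 was the highest and combined the highest mitochondrial sum (5967 CPM) with the lowest nuclear sum (2201 CPM). Both eyes of animal 68 were the lowest. The left one had the highest nuclear sum (2795 CPM) and the right one the lowest mitochondrial sum (4943 CPM). With the chromosome 1 copies added to their members, the mean ratio was 3.05, and with mt-Nd6 and the overlapping members left out it was 1.66.

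**Figure D3:**
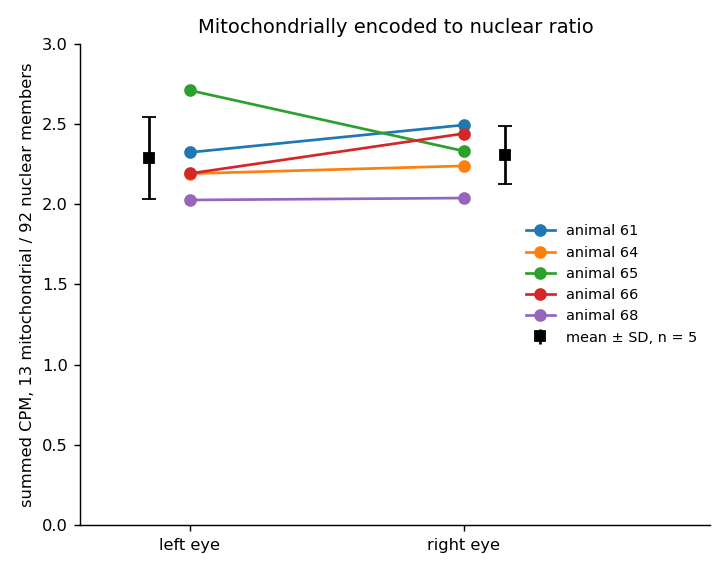
Summed CPM of the 13 mitochondrially encoded members over that of the 92 nuclear members in each eye, with a line joining the eyes of an animal and squares with bars for the mean ± SD of 5 eyes. The groups overlap, and animal 65 alone is lower in the right eye.

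Fellow eyes were compared within animals to ask whether any subunit differed between the left and the right eye. Whether the lens was on the same side in all animals is not known. The results below therefore do not show whether lens-treated and untreated eyes differed. With animals as blocks, limma called none of the 104 members at a threshold of 0.05 (adjusted p = 0.9998 for each), beside 0% of all 15414 genes tested (n = 5 animals). At an unadjusted p under 0.05 limma counted 9 of 104 members and 430 of all genes. For 99 of 104 members the 95% interval of the difference lay within 1.5-fold in either direction, and for 103 within 2-fold. The 5 with wider intervals were Cox6a2, Cox7a1, Ndufaf6, mt-Atp8 and mt-Nd4l, and Cox6a2 alone passed 2-fold (log2 -1.17 to 0.94).

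Most members had a slightly lower value in the right eye, with none past the test. Of 104 members 80 had a value below 0, with a median log2 difference of -0.07, while 8320 of 15414 genes did with a median of -0.01. The mitochondrial members had a median of -0.09 (10 of 13 lower) and the nuclear members one of -0.06 (70 of 91 lower). The count depended on the animals. It was 96 of 104 without the right eye of animal 65, where many nuclear members were higher, and 70 of 104 without animal 68, where most were lower. Within animals 61, 64, 65, 66 and 68 the median right minus left log2 difference of the nuclear subunits was -0.01, -0.12, 0.22, -0.12 and -0.19, and that of the mitochondrial members 0.02, -0.14, -0.16, 0.06 and -0.26. The median over all genes had the sign of the nuclear subunits in 4 of the animals, at 0.01, -0.04, 0.06, -0.03 and -0.06. In animals 61, 65 and 66 the medians of the genomes had opposite signs, and they lay furthest apart in animal 65, with 10 of 13 mitochondrial members lower and only 18 of 83 nuclear subunits lower in the right eye.

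By complex, the median log2 difference of nuclear subunits was -0.07 in complex I (26 of 37 lower), -0.10 in complex II (4 of 4), -0.05 in complex III (6 of 8), -0.06 in complex IV (14 of 18) and -0.05 in complex V (13 of 16). These medians lay close together. Sdhd (-0.13 ± 0.06, SE), Sdhb (-0.12 ± 0.06) and Sdha (-0.07 ± 0.06) lay close to each other. Atp5a1 (-0.01 ± 0.06) and Atp5b (-0.02 ± 0.07) lay at 0 within their errors, and so did mt-Co1 (0.01 ± 0.09).

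**Figure D4:**
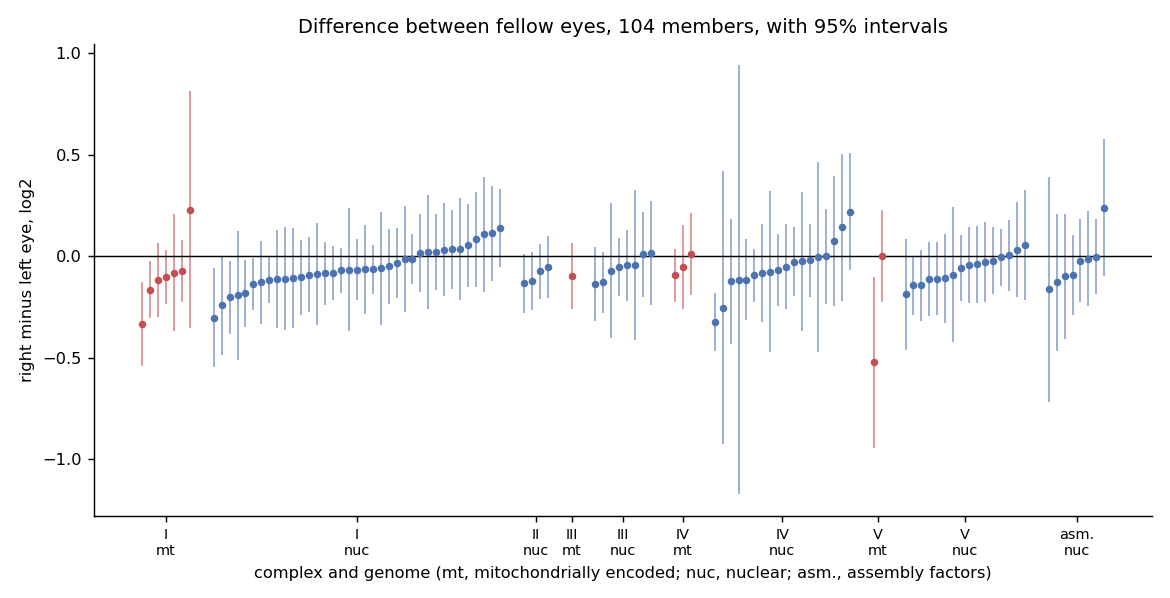
Right minus left log2 difference of the 104 tested members with 95% intervals from limma, grouped by complex and genome and ordered within groups. Points lie between -0.52 and 0.24, most intervals span 0, and the widest belongs to Cox6a2.

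Among members with a lower value in the right eye, Cox7c, mt-Nd3, Ndufb1-ps, mt-Atp8 and mt-Nd4 had the smallest p. Cox7c (chromosome 13, 86044816 to 86046904, minus strand, GRCm38) stood at 12.8, 11.2, 8.40, 8.48 and 13.1 CPM in the left eyes of animals 61, 64, 65, 66 and 68 and at 10.0, 8.52, 6.85, 7.29 and 9.93 CPM in the right eyes. The right eye was lower in 5 of 5 animals, although the groups overlapped, and the log2 difference was -0.32 ± 0.06 (SE, adjusted p = 0.9998 in limma). Reads of Cox7c may be shared with its copy Gm12338, which was higher in the right eye in 4 of 5 animals. Cox7c and Gm12338 together were at 24.2, 26.4, 22.7, 23.1 and 30.6 CPM in the left and at 24.7, 24.0, 25.2, 23.1 and 22.9 CPM in the right eyes, higher in the right eye in 2 of 5, so the common direction of Cox7c was lost in the sum. Without the block on animals the difference was the same and limma's unadjusted p was 0.0577, against 0.000953 with it.

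mt-Nd3 (chromosome M, 9459 to 9806, plus strand), part of the membrane arm of complex I, measured 85.9, 74.2, 65.8, 64.5 and 73.8 CPM in the left and 64.2, 66.9, 50.7, 40.6 and 70.7 CPM in the right eyes, in the same order of animals. It was lower in the right eye in 5 of 5 animals (-0.33 ± 0.09), and the groups overlapped between 64.5 and 70.7 CPM. The sum of mt-Nd3 and its copy Gm28438 was higher in the right eye in 0 of 5 animals. mt-Atp8 (chromosome M, 7766 to 7969, plus strand), the short membrane subunit of ATP synthase, was at 36.2, 29.3, 28.7, 22.4 and 28.5 CPM in the left and at 27.6, 24.8, 10.7, 15.6 and 27.3 CPM in the right eyes (-0.52 ± 0.18, lower in 5 of 5). Ndufb1-ps, named as a pseudogene but listed as a protein-coding complex I gene, differed by -0.30 ± 0.10 (lower in 5 of 5, and -0.20 without animal 68) and mt-Nd4 by -0.16 ± 0.06 (lower in 4 of 5). mt-Atp6, which overlaps mt-Atp8 on the same strand, differed by 0.002 ± 0.10 (lower in 2 of 5). Adjusted p was 0.9998 for each of these in limma.

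The right eyes of animals 65 and 66 were the lowest pair of libraries for mt-Nd3, mt-Atp8, Cox7c and Ndufb1-ps, and also for Atp5k and Ndufb4, which makes 6 of 104 members (5.77%), beside 3.76% of all genes tested. This group was chosen after its values were seen. The chromosome 1 copy of mt-Nd3 had its lowest values in the same libraries (72.7 and 59.2 CPM), whereas the copies of Cox7c (Gm12338, 18.4 CPM) and Ndufb4 (Ndufb4c, 21.4 CPM) were at their highest in the right eye of animal 65. Several marker sums also had their extremes in the right eyes of animals 65 and 66. The RPE sum (7008 and 7016 CPM, next 6690), the smooth muscle and pericyte sum (912 and 918 CPM, next 881) and the endothelial sum (572 and 610.1 CPM, next 569) were highest there, and the surface epithelium sum was lowest (135 and 146 CPM, next 235). Their part in the result was not tested. Without the right eye of animal 65, mt-Nd3 differed by -0.32 and mt-Atp8 by -0.30 on the log2 scale (limma, adjusted p = 0.988 for each).

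The members with the lowest p in the other direction were Ndufa4l2 (0.22 ± 0.12, SE), a paralog known to be induced by hypoxia, the assembly factor Ndufaf2 (0.24 ± 0.14), the complex I subunits Ndufa3 (0.14 ± 0.08) and Ndufv3 (0.11 ± 0.10), and mt-Nd4l (0.23 ± 0.25). None passed the test (adjusted p = 0.9998 in limma for each). A right value above the left one in all 5 animals occurred for 0 of 104 members, beside 273 of 15414 genes. The reverse, a right value below the left one in all 5, occurred for 8 of 104 members, beside 411 of 15414 genes. Cox7c, Ndufb4 and mt-Nd3 were among these 8. Summed with the copies Gm12338, Ndufb4c and Gm28438, they were higher in the right eye in 2, 2 and 0 of 5 animals. Ndufa4l2 was at 4.38, 4.68, 3.55, 4.23 and 4.15 CPM in the left and at 5.64, 4.33, 5.59, 5.15 and 4.04 CPM in the right eyes. Only 3 of 5 animals had more in the right eye. mt-Nd4l rested on 1 library, the right eye of animal 65 at 8.22 CPM, while the other 9 lay between 2.14 and 3.05 CPM, and without that library its difference was -0.07. The other 4 were also smaller without it, at 0.12 for Ndufa4l2, 0.14 for Ndufaf2, 0.07 for Ndufa3 and 0.03 for Ndufv3.

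The animals were compared against the spread between their fellow eyes. In each animal 1 of these eyes wore the lens, so this spread may include an effect of the lens. None of the 104 members passed in limma's moderated F test (smallest adjusted p = 0.299, for Cox7c), beside 0.0843% of all 15414 genes, which is 13 genes. At an unadjusted p under 0.05 there were 5 members (Cox7c, Ndufb1-ps, mt-Nd3, Ndufb8 and Uqcrfs1) and 1113 genes in all. The adjusted p was 0.556 for Ndufb1-ps and 0.602 for mt-Nd3 in limma. Litter, dissection and library preparation may be shared by the eyes of an animal and cannot be told apart from the animal.

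Over all 10 libraries the typical member varied as little as the typical gene, with a median SD of log2 values of 0.15 against 0.16 for all genes tested. Those that varied most were Cox6a2 (SD 0.74, highest over lowest library 6.73), Cox7a1 (0.54, 3.11), mt-Nd4l (0.52, 3.85) and mt-Atp8 (0.51, 3.40). The first pair are complex IV subunit isoforms known from skeletal and heart muscle, where they replace the widely expressed Cox6a1 and Cox7a2. Cox8b is the third isoform known from muscle and replaces Cox8a, and its SD was 0.28.

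Cox6a2 stood at 3.77, 12.4, 4.35, 1.84 and 9.11 CPM in the left eyes of animals 61, 64, 65, 66 and 68 and at 4.57, 4.18, 3.85, 7.61 and 4.18 CPM in the right eyes. Its 3 high libraries were the left eyes of animals 64 and 68 and the right eye of animal 66, and the left eye of animal 66 was the lowest. Cox7a1 stood at 4.29, 10.2, 4.47, 3.30 and 10.3 CPM in the left and at 5.35, 4.95, 3.69, 6.03 and 4.57 CPM in the right eyes. The same 3 libraries were its highest and the same library its lowest.

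The skeletal muscle list (20 genes, 18 of them at a mean of at least 1 CPM, with Tnni1 and Myl2 below) summed to 4682, 9747, 4801, 2208 and 10270.4 CPM in the left and to 5184, 4631, 3919, 8146 and 4571 CPM in the right eyes. It was highest in the same 3 libraries as Cox6a2 and Cox7a1 and lowest in the same one. Its part in their values was not tested. As a share per kb, Cox6a2 made up 7.39% to 39.1% of the Cox6a pair (mean 21.7% ± 9.37) and Cox7a1 9.68% to 26.6% of Cox7a1, Cox7a2 and Cox7a2l together (16.7% ± 5.63). The log2 difference between eyes was -0.12 ± 0.45 for Cox6a2 and -0.25 ± 0.29 for Cox7a1, so this comparison had little precision for them.

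Cox8b did not share that order. It stood at 20.5, 23.7, 14.5, 21.8 and 24.6 CPM in the left and at 18.4, 22.3, 24.4, 14.5 and 20.04 CPM in the right eyes. Its lowest library, the right eye of animal 66, had the third highest muscle sum, and in the left eye of animal 66, where the muscle sum and Cox6a2 were lowest, Cox8b was at 21.8 CPM. Per kb of exons, Cox8b made up 45.1% ± 3.62 of the Cox8 pair (37.8% to 48.7%). This share depended on the length used. In CPM it was 32.4%, and per kb of coding sequence Cox8b stood at 97.5 CPM against 191 CPM for Cox8a. Cox8b is also known from brown fat, and the 6 adipocyte genes listed summed to 33.8 to 63.1 CPM. Nearly all of that was Plin4 (33.2 to 62.1 CPM), a lipid droplet protein also known from muscle, while Ucp1, Cidea, Adipoq, Plin1 and Cidec were below a mean of 1 CPM. The part of either tissue in the Cox8b values was not tested.

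**Figure D5:**
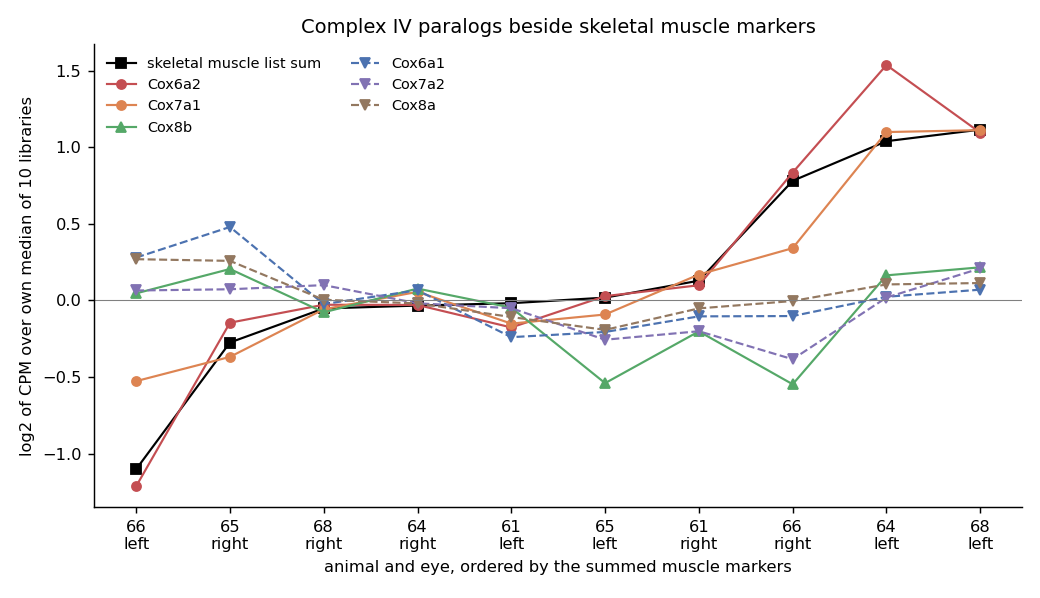
log2 of CPM over each gene's own median of 10 libraries, for the complex IV paralogs and the summed skeletal muscle markers, with libraries ordered by the muscle sum. Cox6a2 and Cox7a1 are highest in the 3 libraries with the highest muscle sum, whereas Cox8b, Cox6a1, Cox7a2 and Cox8a are not.

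The other isoforms made up small and steadier shares of their sets. Per kb, Cox4i2, known from lung and from hypoxia, made up 4.75% ± 0.709 of the Cox4i pair, Cox6b2, known from testis, 6.10% ± 1.22 of the Cox6b pair, and Ndufa4l2 14.2% ± 2.39 of the Ndufa4 pair. Among the genes that encode the c subunit of ATP synthase, whose mature proteins are identical, Atp5g3 made up 61.1% ± 2.29, Atp5g1 36.2% ± 1.98 and Atp5g2 2.70% ± 0.567 per kb of exons. The order of Atp5g3 and Atp5g1 depended on the length used. In CPM, Atp5g1 made up 56.3% and Atp5g3 42.2%, and per kb of coding sequence they stood at 85.9 and 62.2 CPM. Cox7a2l, which takes part in joining complexes III and IV, made up 54.2% ± 4.68 of its set and Cox7a2 29.1% ± 2.76.

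The promoters of the nuclear members were read to show what the widely expressed and the muscle isoforms look like. RefSeq promoters on GRCm38.p6 (250 bases before to 50 after the start) were found for 76 of 92 nuclear members and compared with 27025 promoters of all genes. Their median GC content was 58.8% against 52.7%, and they held a median of 20 CpG dinucleotides against 7. Cox8b had 2, the fewest of the 76, and Cox7a1 had 7, the third fewest, while their widely expressed counterparts Cox8a and Cox7a2 had 19 and 20. Low counts were not confined to these isoforms, since Cox7b had 5 and Ndufc2 had 8. Cox6a1 had 32, and its muscle counterpart Cox6a2 had no entry. The 250 bases before the start are shown for the Cox8 pair, for Cox7a1 and for Cox6a1, the complex IV promoter with an NRF1 match, 5′ to 3′ in the direction of transcription, with motif matches in capitals: Cox6a1 at chr5:115348959-115349208 (minus strand), Cox7a1 at chr7:30183921-30184170 (plus strand), Cox8b at chr7:140900447-140900696 (minus strand) and Cox8a at chr19:7217617-7217866 (minus strand).
Cox6a1: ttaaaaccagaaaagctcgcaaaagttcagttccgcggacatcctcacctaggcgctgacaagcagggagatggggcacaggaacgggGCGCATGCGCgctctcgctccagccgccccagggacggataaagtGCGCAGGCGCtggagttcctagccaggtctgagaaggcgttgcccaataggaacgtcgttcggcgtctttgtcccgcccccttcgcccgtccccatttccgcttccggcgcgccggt
Cox7a1: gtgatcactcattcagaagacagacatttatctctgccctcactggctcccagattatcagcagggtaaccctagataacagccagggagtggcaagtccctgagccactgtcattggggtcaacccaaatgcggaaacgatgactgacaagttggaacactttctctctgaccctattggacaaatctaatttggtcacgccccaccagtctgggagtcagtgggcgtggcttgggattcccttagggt
Cox8b: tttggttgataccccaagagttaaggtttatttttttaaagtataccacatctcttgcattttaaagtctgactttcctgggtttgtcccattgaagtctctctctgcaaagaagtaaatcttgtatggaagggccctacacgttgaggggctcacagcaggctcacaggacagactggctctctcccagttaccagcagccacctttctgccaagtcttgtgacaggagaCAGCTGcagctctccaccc
Cox8a: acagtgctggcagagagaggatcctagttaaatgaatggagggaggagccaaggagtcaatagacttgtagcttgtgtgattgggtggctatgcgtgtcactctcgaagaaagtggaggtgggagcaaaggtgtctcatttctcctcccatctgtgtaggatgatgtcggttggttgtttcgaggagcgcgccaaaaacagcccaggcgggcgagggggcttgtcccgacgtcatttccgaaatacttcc
The capitals in Cox6a1 mark 2 matches to the motif of NRF1, the first exact and the second with 1 base free. NRF1 is a transcription factor known for regulating nuclear respiratory genes. The capitals in Cox8b mark an E-box of the kind bound by muscle factors, starting 19 bases before the start. No searched motif is marked in the printed bases of Cox7a1 and Cox8a. With the 50 bases after the start included, Cox8a held a match to CCGGAAGT and Cox8b one to TATAAA, both described below.

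Over the 300 bases and both strands, the NRF1 motif was found in 7 of 76 members (9.21%) and in 0.977% of all promoters. With 1 of its bases free, which includes the exact motif, it was found in 18 members (23.7%) and 4.78% of all promoters. These were 7 of 33 complex I promoters, 2 of 3 in complex II, 1 of 5 in complex III, 1 of 13 in complex IV, 5 of 15 in complex V and 2 assembly factors. A 10-base motif of YY1 was found in 5 members (6.58%) and 0.899% of all promoters, and its core AANATGGCG, which includes it, in 9 (11.8%) and 2.51%. The ERR motif TCAAGGTCA was found in Atp5g3 and Sdhd (2.63%, against 0.407%).

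The ETS motif CCGGAAGT, bound by GABPA, was found in 5 members (6.58%) and 4.00% of all promoters, and the SP1 motif GGGGCGGGG in 12 (15.8%) and 11.6%. TATAAA was found in 9.21% of members and 14.2% of all promoters and the E-box CAGCTG in 7.89% and 16.1%. The MEF2 motif and its core TATTTATA were found in 0 members, against 0.403% and 1.77% (this core overlaps TATAAA on the opposite strand). The promoters of all genes were not matched to the members in GC or CpG content, and the part of base composition in these shares was not tested. These matches describe letters in the sequence, and binding was not measured.

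The genes that serve the complexes were examined as 5 lists. Of 47 assembly factors tested, Ndufaf1 to Ndufaf8 among them, 0 passed in either limma test, with a median right minus left log2 difference of -0.00 and none below an unadjusted p of 0.05 between eyes. Left and right eyes had 20.2 ± 1.93 and 20.7 ± 2.16 CPM of Ttc19, an assembly factor of complex III, and 29.7 ± 0.489 and 29.8 ± 1.19 CPM of Coa5, one of complex IV. Of 15 electron carriers, exchangers and Cyc1, 0 passed in limma (0 at an unadjusted p under 0.05 between eyes), with a median of -0.06 and 12 lower in the right eye. The corresponding values were, for the ATP exchanger Slc25a4, 194 ± 29.3 and 188 ± 10.4 CPM, and for the outer membrane channel Vdac1 65.9 ± 6.33 and 62.5 ± 2.91 CPM.

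Genes that transcribe and process mitochondrial RNA (30 tested, median -0.02) had 0 calls in limma, and 0 at an unadjusted p under 0.05 between eyes. Among them Lrpprc, which stabilises mitochondrial mRNAs, had 29.3 ± 1.78 CPM (left) and 28.8 ± 1.79 CPM (right), and the DNA polymerase Polg 26.4 ± 1.53 and 26.8 ± 1.497 CPM. Regulators of nuclear respiratory genes (17 tested, median 0.01) had 0 calls as well in limma and 0 at an unadjusted p under 0.05 between eyes. Mef2a stood at 83.5 ± 3.68 and 83.8 ± 5.02 CPM and Gabpb2 at 66.4 ± 3.20 and 66.7 ± 1.38 CPM. The 78 genes of the mitochondrial ribosome divided evenly, with 39 lower and 39 higher in the right eye, a median of -0.00 and 0 calls in limma (0 at an unadjusted p under 0.05 between eyes). Mrpl24 stood at 18.2 ± 1.06 and 18.4 ± 0.957 CPM and Mrps25 at 17.9 ± 1.36 and 18.3 ± 0.943 CPM. Between animals, limma counted 2, 1, 0, 2 and 1 genes of these 5 lists at an unadjusted p under 0.05.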

How the data were processed

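RNA was measured in 10 libraries, the left and right eyes of 5 animals. Per the labels' protocols, 1 μg of total RNA was depleted of ribosomal RNA and made into stranded libraries. The deposited values are CPM plus 0.0001, and that offset was removed here. STAR, Partek and the build GRCm38 (mm10) are named per the submitters' processing notes. Not given in the sources used here are the annotation release and whether counting used strand. GENCODE M21 held 25737 of the genes under the same name and chromosome, with 99.4% of starts and 99.4% of ends equal (the deposited stop minus 1), and all 105 members were matched. Exon and coding lengths were taken from that annotation, pooled over all transcripts of a gene. Coordinates are 1-based.

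Between 89.1% and 90.1% of low values per library were whole multiples of a step (tolerance 0.05), so depth was implied but whole reads were not recovered. The 15414 genes that averaged 1 CPM or more were tested as log2(CPM + 0.230), a scale that understates changes of low genes, with limma 3.58.1 in R 4.3.3 (intensity trend, Benjamini-Hochberg over all genes, threshold 0.05). The animal was a block in right minus left, and eye side a term between animals, with 4 residual degrees of freedom. The titles give both eyes of an animal its number, which pairs the libraries, although the correlation of fellow eyes' deviations was 0.272, 0.113, 0.0536, -0.189 and -0.0547 in animals 61, 64, 65, 66 and 68. Near-identical copies were found with BLAST 2.17.0 of member transcripts against annotated transcripts. Levels, ratios and shares have no test. The scripts were tested on simulated data.

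Named were all mitochondrial members, the 3 nuclear members with the highest level per kb in each complex, the paralog sets, the 5 members with the smallest p in each direction, the member below the filter and the 2 highest genes of each list. Copies, Cyc1, Plin4, genes high per kb of coding sequence, extremes of variability or interval width and the members lowest in the same 2 libraries were named after their values were seen. The members and lists were chosen with earlier results of these data known. Alternatives covered pseudocount, filter, scaling, moderation, weights, block, lengths and each animal left out, and Python 3.11.15 with matplotlib 3.10.9 drew the figures.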

Additional observations from a re-analysis of the deposited data

Results flagged for a closer look

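In 98 groups of 5 eyes (the named members, their sums and their ratio, each in left and in right eyes), 10 had a library whose gap to the nearest other exceeded 0.71 of the group's range, Dixon's 95% critical value for 5 samples. Chance gives about 1 in 20. The right eye of animal 65 stood above the other right eyes for mt-Nd4l (8.22 CPM, the next at 3.05), Ndufa13 (49.1, next 43.6), Cox8a (49.2, next 41.2), Cox6a1 (27.3, next 20.5) and Atp5g2 (1.28, next 0.874). The right eye of animal 66 was above the other right eyes for Cox6a2 (7.61 CPM, next 4.57) and below them for Cox6b1 (32.3 CPM, next 39.4). Among left eyes, mt-Co2 was high in animal 65 (328 CPM, next 302), mt-Nd6 low in animal 66 (25.9 CPM, next 35.5) and Ndufa13 high in animal 68 (51.6 CPM, next 42.7).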

How the results depend on the processing

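In both limma tests 0 of the members passed under any alternative run, and right minus left had 0 calls among all genes in each. Without the replicate block there were also 0 calls, and 434 genes against 430 with it had an unadjusted p under 0.05, while the members at that p numbered 1 against 9. Between animals, 13 genes of all tested were called, against 25 with no eye side term, 8 without the right eye of animal 65 (added after the data were seen) and 5 to 10 with an animal left out (5 without animal 61, 8 without 64 and 6 without 68). The right minus left log2 difference of mt-Nd4l was -0.0653 without animal 65 or without its right eye alone, and ranged from -0.07 to 0.37 with an animal left out. The mean ratio of mitochondrial to nuclear sums, 2.30, was 14.5 from medians per kb, 1.66 without mt-Nd6 and overlapping members and 3.05 with the chromosome 1 copies added (added after the data were seen), and lay between 2.24 and 2.37 with an animal left out. The nuclear median of 10.3 CPM per kb became 37.0 per kb of coding sequence. Sums over members of CPM per kb were 5227 for mitochondrial and 1464 for nuclear members. In CPM instead of per kb, the share of Cox7a1 was 7.76% and that of Cox8b 32.4%. Of 104 members, between 70 and 96 were lower in the right eye with an animal left out and between 75 and 81 under other scalings. The low count of replicates limits each comparison to 5 animals, and copies and overlaps on the same strand limit 21 and 9 members. Overlaps on the opposite strand concern 33 members, whose levels are uncertain too if counting did not use strand.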
